A study of Mus musculus with 8 samples.

Results

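The Hox genes are the homeobox genes of the 4 vertebrate Hox clusters, and their transcripts were compared between a pair of mouse cell lines, SThdh111/111 and SThdh7/7. Members were taken from the array annotation as every probe set named for exactly 1 gene whose symbol was Hox followed by a cluster letter and a paralogue number. This gave 48 of 45037 probe sets, for 33 of the 39 Hox genes in the RefSeq gene table. HoxA was covered by 16 probe sets for 9 genes, HoxB by 11 for 9, HoxC by 11 for 7 and HoxD by 10 for 8. The other 6 had no probe set named for them alone and are not analysed here. Total RNA of 4 SThdh111/111 and 4 SThdh7/7 samples had been hybridised to Affymetrix whole-genome mouse arrays, 1 array per sample. Both are striatal cells of knock-in mouse embryos, conditionally immortalised, and the number in the name refers to the length of the polyglutamine stretch encoded by both Htt alleles, long in SThdh111/111 as a model of Huntington's disease and short in SThdh7/7. Each group is a single line, so the Htt genotype and any other difference between the lines cannot be told apart. Whether the samples came from separate cultures is not stated, and p-values therefore reflect the spread among these arrays, which may be technical.

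Hox genes encode transcription factors that bind DNA through a homeodomain. They lie in 4 clusters, in which genes with the same paralogue number in different clusters descend from a common ancestor, and low-numbered genes are expressed further forward along the body axis than high-numbered ones. In the embryo they are expressed in the hindbrain, the spinal cord, the trunk and the limbs, and they are normally silent in the forebrain, from which the striatum arises, where Polycomb complexes hold their chromatin closed.

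Fluorescence is given as log2 intensity, and differences are SThdh111/111 minus SThdh7/7 on that scale. They were tested with limma, with Benjamini-Hochberg adjustment over the 41409 probe sets that reached a log2 of 4 on 4 or more arrays, and called at an adjusted p under 0.05. A control floor of 7.02, or 130.0 on the linear scale, was taken from bacterial control probe sets on the highest of the 8 arrays. A value below it is treated here as not distinguished from background. Where some arrays of a line lay below the floor those arrays were raised to it, and "at least" marks the resulting difference. Median intensity on the linear scale set SThdh7/7 samples 1 and 2 apart, with values of 173.9 and 174.0, against 136.2 to 147.0 elsewhere. On the same linear scale the control percentile was 72.0 to 77.5 on the SThdh111/111 arrays and 98.7 to 130.0 on the SThdh7/7 arrays. The floor is the highest of these, so it lies above the percentile of every SThdh111/111 array. A SThdh111/111 value just below the floor can therefore exceed the control percentile of its own array. Among all kept probe sets the differences had a median of -0.12. In RNA from whole cultures, fewer cells that express a gene and less RNA per cell cannot be told apart.

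Some Hox genes of the A, B and C clusters were called higher in SThdh111/111. With the brightest probe set taken for each gene, 14 of 32 genes rose and 0 fell, with 15 higher and 1 lower at an unadjusted p under 0.05 in limma. Over all 17389 named genes tested, 29% were called, 13.1% higher and 15.9% lower. The lines did not overlap in 13 of the 14 called genes, which is no separate evidence because the calls came from the same values. Counted over all Hox genes, 14 were higher without overlap and 1 lower, against 14.3% and 17.3% of named genes. The 14 include Hoxa7 and the 1 lower was Hoxd12, both below the floor on all arrays. Of the 7 Hox genes above the floor on all arrays 6 were called higher, by 0.59 to 2.47, against 19% of the named genes above it on all arrays, of which 22.9% were called lower. Of the 48 probe sets 46 passed the filter on low values, and 20 of these were called higher, against 9.87% of all kept probe sets, and 0 lower, against 12.6%. That filter can be passed through the brighter line alone, and Hoxd11 did not pass it. The calls fell on 5 of 9 HoxA genes, 7 of 9 HoxB genes, 2 of 7 HoxC genes and 0 of 7 HoxD genes. By position in the cluster, 4 of 7 genes with paralogue numbers 1 to 3 rose, 5 of 12 with numbers 4 to 8 and 5 of 13 with numbers 9 to 13. The median difference over the 32 genes was 0.80. It was 0.24 with all values below the floor set to it; 10 genes were below the floor on every array and 15 on some. With values raised to the floor in this way 9 genes were called higher, and Hoxa2, Hoxa9, Hoxb4, Hoxb5 and Hoxc6 were not. Without SThdh7/7 samples 1 and 2 all 14 genes were still called higher and Hoxd8 was added.

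**Figure D1:**
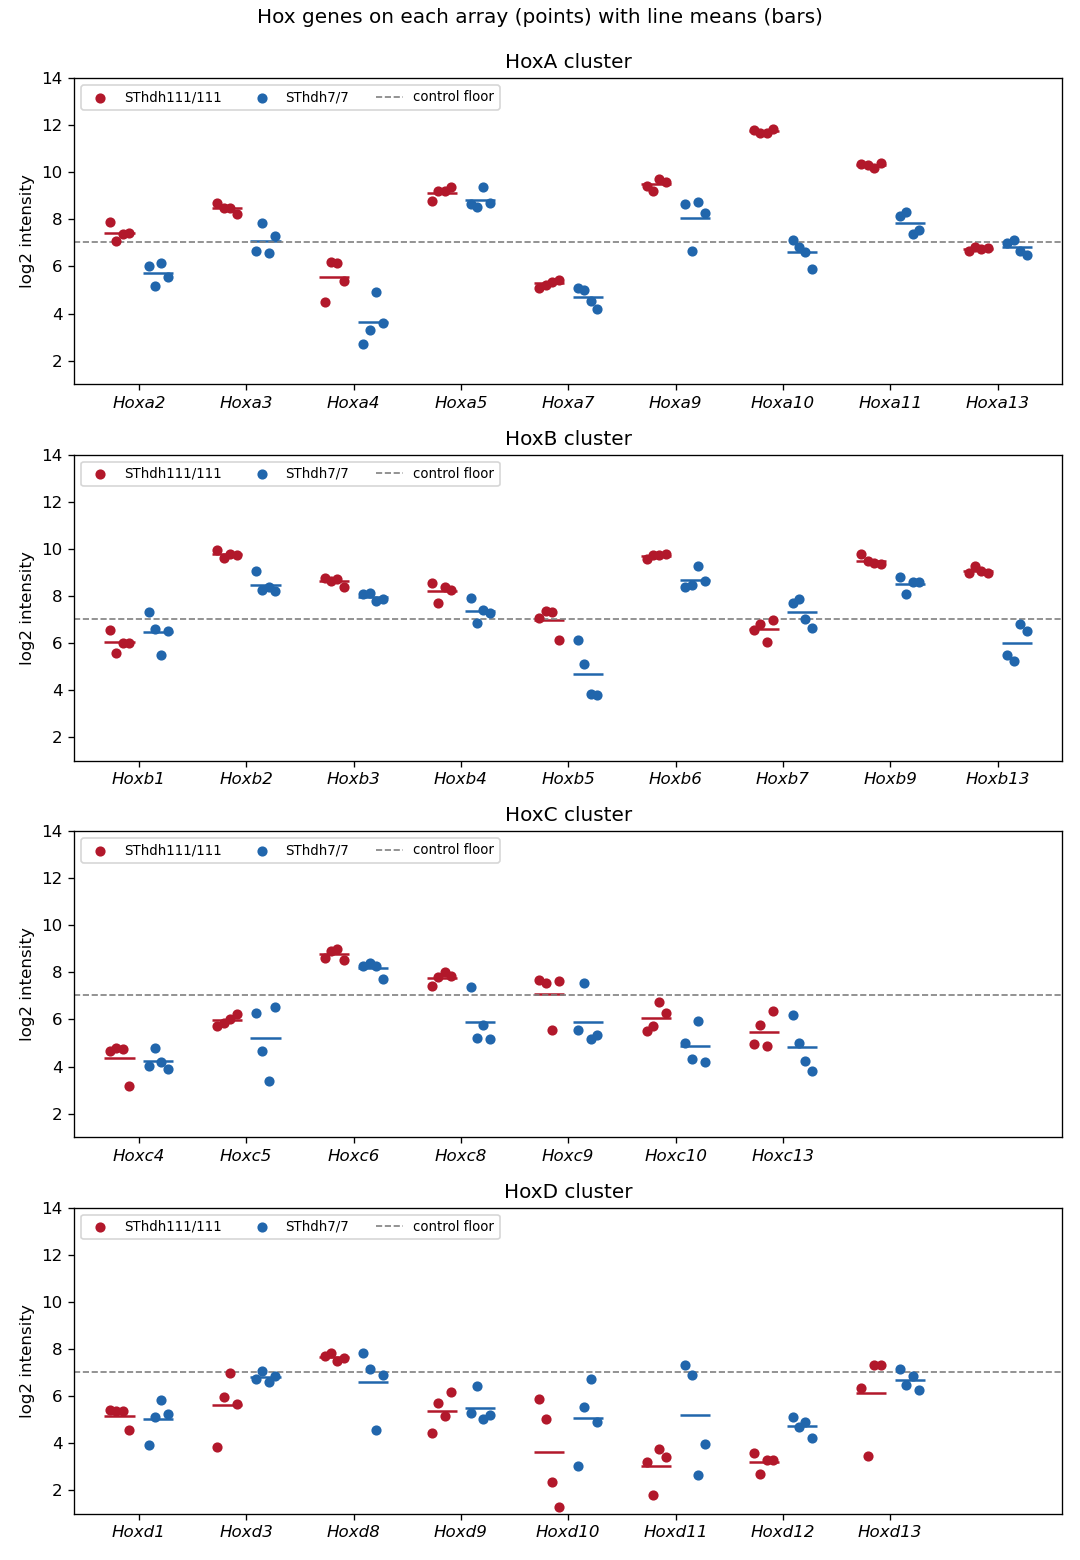
Log2 intensity (vertical axis) of the brightest probe set of each Hox gene, with Hoxd11 shown though it did not pass the filter, by cluster and paralogue number. Each point is 1 array, 4 of SThdh111/111 (red) left of 4 of SThdh7/7 (blue); short bars are line means and the dashed line is the control floor of 7.02. Hoxa10, Hoxa11 and Hoxb13 show wide gaps between the lines, and most HoxD points lie below the floor.

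In the posterior part of the HoxA cluster, on chromosome 6, Hoxa9, Hoxa10 and Hoxa11 were called higher. Hoxa10, which patterns the lumbar spine and the uterus, measured 11.81, 11.68, 11.66 and 11.86 in SThdh111/111, against 7.12, 6.84, 6.62 and 5.87 in SThdh7/7. All SThdh111/111 arrays were far above the floor, and only SThdh7/7 sample 1 was above it. The difference was at least 4.71 (adjusted p = 5.5e-10).

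Hoxa11, needed for the forearm bones, the kidney and the uterus, measured 10.36, 10.30, 10.19 and 10.41 in SThdh111/111, against 8.14, 8.32, 7.38 and 7.55 in SThdh7/7. It was above the floor on every array of both lines and the lines did not overlap. It rose by 2.47 ± 0.19 (SE, n = 4 per line; limma adjusted p = 3.2e-07).

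Hoxa9, a regulator of blood stem cells and of the thoracic and lumbar axis, had a pair of probe sets that both rose. The brighter measured 9.43, 9.22, 9.73 and 9.58 in SThdh111/111, against 8.66, 6.67, 8.72 and 8.26 in SThdh7/7, at least 1.32 higher (adjusted p = 0.010), a call lost with values raised to the floor (adjusted p = 0.062) and with no intensity trend (adjusted p = 0.077). The other measured 10.14, 10.09, 10.13 and 9.94 in SThdh111/111, against 3.72, 4.38, 3.63 and 6.07 in SThdh7/7, at least 8.31-fold higher (adjusted p = 6.0e-07). The direction was shared, but the brighter probe set was above the floor on 3 SThdh7/7 arrays and the other on none.

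Hoxa13, the next gene in the cluster, which patterns the digits and the genital tract, was not called. It measured 6.64, 6.83, 6.72 and 6.79 in SThdh111/111, against 7.01, 7.13, 6.66 and 6.49 in SThdh7/7. The lines overlapped around the floor (difference -0.08 ± 0.32, SE; adjusted p = 0.91), and the sign turned positive after centring or quantile normalization of the arrays.

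The promoters of these neighbours, and of Hoxd10, are printed to show the sequence at the starts of genes that were and were not called. Hoxd10, the paralogue of Hoxa10, was below the floor on every array, and Hoxa13 lay around it. Neither is therefore shown to be unchanged. Each window runs from 250 bases before to 50 after an annotated start (RefSeq, GRCm38.p6), 5′ to 3′ on the gene's strand, with CG dinucleotides, the sites of DNA methylation, in capitals.
Hoxa9, chr6:52227321-52227620, minus strand: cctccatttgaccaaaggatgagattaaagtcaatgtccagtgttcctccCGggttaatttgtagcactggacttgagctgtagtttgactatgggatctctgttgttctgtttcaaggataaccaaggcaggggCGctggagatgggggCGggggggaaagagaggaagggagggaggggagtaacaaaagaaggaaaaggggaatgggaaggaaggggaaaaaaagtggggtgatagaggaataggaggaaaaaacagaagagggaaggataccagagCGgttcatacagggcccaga
Hoxa10, chr6:52240805-52241104, minus strand: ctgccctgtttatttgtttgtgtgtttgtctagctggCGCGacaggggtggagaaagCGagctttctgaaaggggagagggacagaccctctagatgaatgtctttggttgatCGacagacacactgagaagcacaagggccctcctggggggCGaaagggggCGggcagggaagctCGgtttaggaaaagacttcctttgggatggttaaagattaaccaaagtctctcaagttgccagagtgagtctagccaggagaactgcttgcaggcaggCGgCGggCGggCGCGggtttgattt
Hoxa10, chr6:52234890-52235189, minus strand: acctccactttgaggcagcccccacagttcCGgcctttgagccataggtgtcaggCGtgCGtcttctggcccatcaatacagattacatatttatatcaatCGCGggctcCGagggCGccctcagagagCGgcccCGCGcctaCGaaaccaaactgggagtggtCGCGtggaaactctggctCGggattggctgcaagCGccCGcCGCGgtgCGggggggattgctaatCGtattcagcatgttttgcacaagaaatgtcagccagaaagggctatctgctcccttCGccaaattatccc
Hoxa11, chr6:52245761-52246060, minus strand: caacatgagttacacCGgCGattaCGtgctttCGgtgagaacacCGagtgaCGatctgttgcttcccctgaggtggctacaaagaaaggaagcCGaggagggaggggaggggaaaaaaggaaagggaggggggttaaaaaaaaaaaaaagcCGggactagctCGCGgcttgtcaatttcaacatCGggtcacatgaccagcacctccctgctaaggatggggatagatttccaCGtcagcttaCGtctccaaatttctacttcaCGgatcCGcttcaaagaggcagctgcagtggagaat
Hoxa13, chr6:52260831-52261130, minus strand: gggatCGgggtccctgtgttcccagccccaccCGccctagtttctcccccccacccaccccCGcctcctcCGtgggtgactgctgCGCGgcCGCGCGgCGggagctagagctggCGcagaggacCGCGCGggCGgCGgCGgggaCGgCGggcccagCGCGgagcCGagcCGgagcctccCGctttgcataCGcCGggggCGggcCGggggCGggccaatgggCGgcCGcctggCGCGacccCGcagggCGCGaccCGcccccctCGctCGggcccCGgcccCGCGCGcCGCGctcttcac
Hoxd10, chr2:74691641-74691940, plus strand: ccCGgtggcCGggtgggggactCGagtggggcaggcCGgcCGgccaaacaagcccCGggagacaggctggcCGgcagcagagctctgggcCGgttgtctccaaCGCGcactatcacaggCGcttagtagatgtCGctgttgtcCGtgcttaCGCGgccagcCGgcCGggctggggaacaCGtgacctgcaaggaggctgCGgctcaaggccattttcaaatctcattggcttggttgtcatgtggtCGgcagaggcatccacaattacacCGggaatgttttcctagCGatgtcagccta

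The Hoxa9 window held 4 CG dinucleotides, those of Hoxa10 12 and 21, that of Hoxa11 15, that of Hoxa13 45 and that of Hoxd10 22. The median over all 32851 windows of the table was 7, and 1.93% of them held as many as Hoxa13. Over the 24 windows found for 22 Hox genes the range was 4 to 45. The motif TATAAA was searched on both strands and was present in the second Hoxa10 window listed, and AGGTCA, a core site of retinoid receptors, in that of Hoxd10. All windows of the table held these motifs in 13.6% and 16.3% of cases. TGATNNAT, which resembles sites of Hox proteins bound with Pbx, was in none of the 6 windows and in 8.85% of all.

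Of the anterior HoxA genes, Hoxa2 and Hoxa3 were called higher. Hoxa2, which patterns the hindbrain and the skeleton of the pharyngeal arches, measured 7.88, 7.10, 7.38 and 7.42 in SThdh111/111, against 6.02, 5.17, 6.15 and 5.54 in SThdh7/7. All SThdh111/111 arrays were just above the floor and all SThdh7/7 arrays below it, so the fold was at least 1.34 (adjusted p = 0.0045, and 0.13 with values raised to the floor). Hoxa3, needed for the thymus and parathyroid, measured 8.71, 8.48, 8.47 and 8.21 in SThdh111/111, against 6.67, 7.87, 6.58 and 7.28 in SThdh7/7. It was at least 1.17 higher (adjusted p = 0.0028), with no overlap between the lines.

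Hoxa5, a regulator of lung and of the cervical to thoracic transition, gave different answers by probe set. Its brightest measured 8.78, 9.19, 9.22 and 9.37 in SThdh111/111, against 8.64, 8.53, 9.36 and 8.70 in SThdh7/7, which overlapped (difference 0.33 ± 0.19, SE; adjusted p = 0.26). It was called higher without SThdh7/7 sample 3. The name of that probe set marks it as one that can match several transcripts. The other measured 8.68, 8.38, 8.33 and 8.94 in SThdh111/111, against 7.03, 7.71, 6.35 and 5.80 in SThdh7/7, at least 1.39 higher without overlap (adjusted p = 0.0016). Hoxa4 and Hoxa7 were below the floor on all arrays.

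Of the HoxB genes, on chromosome 11, 7 of 9 rose. Hoxb13 is best known from the prostate and the tail end of the axis. It measured 8.99, 9.28, 9.07 and 8.97 in SThdh111/111, against 5.50, 5.24, 6.79 and 6.50 in SThdh7/7. Every SThdh7/7 array was below the floor, so it was at least 4.15-fold higher in SThdh111/111 (adjusted p = 1.1e-05).

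Hoxb2, a hindbrain gene that acts on facial motor neurons, measured 9.95, 9.63, 9.78 and 9.76 in SThdh111/111, against 9.07, 8.27, 8.38 and 8.22 in SThdh7/7. It rose by 1.30 ± 0.17 (SE; adjusted p = 7.4e-05) and the lines did not overlap. Hoxb6, expressed in trunk mesoderm and limb buds, measured 9.55, 9.73, 9.75 and 9.78 in SThdh111/111, against 8.39, 8.47, 9.26 and 8.63 in SThdh7/7. It rose by 1.02 ± 0.17 (SE; adjusted p = 5.3e-04). Hoxb9, a gene of the thoracic skeleton, measured 9.78, 9.47, 9.42 and 9.36 in SThdh111/111, against 8.79, 8.08, 8.58 and 8.61 in SThdh7/7. It rose by 0.99 ± 0.16 (SE; adjusted p = 4.0e-04), and in both genes every SThdh111/111 array was above every SThdh7/7 array.

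Hoxb3, expressed in the hindbrain, measured 8.78, 8.64, 8.73 and 8.40 in SThdh111/111, against 8.07, 8.14, 7.77 and 7.86 in SThdh7/7, a rise of 0.68 ± 0.16 (SE; adjusted p = 0.0082). Its other probe set was scattered in both lines and not called (difference 0.21; adjusted p = 0.89). Hoxb4, which promotes the expansion of blood stem cells, measured 8.54, 7.71, 8.37 and 8.26 in SThdh111/111, against 7.90, 6.87, 7.42 and 7.28 in SThdh7/7. The lines overlapped through SThdh111/111 sample 2 and SThdh7/7 sample 1. The difference was at least 0.82 (adjusted p = 0.032), and 6 of the 8 single-sample omissions ended the call, with adjusted p from 0.053 to 0.11. The exceptions were SThdh111/111 sample 2 and SThdh7/7 sample 1. Its other probe set was called higher as well (at least 0.57; adjusted p = 0.027).

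Hoxb5, a gene of enteric neurons and the shoulder level of the axis, was called, but its SThdh111/111 mean lay below the floor. It measured 7.07, 7.34, 7.31 and 6.13 in SThdh111/111, against 6.12, 5.11, 3.81 and 3.77 in SThdh7/7 (adjusted p = 0.016), and no fold is given. The call was lost without SThdh111/111 sample 2 (adjusted p = 0.054) and without sample 3 (adjusted p = 0.052). Hoxb1 and Hoxb7 were the HoxB genes not called. Hoxb1, which specifies a single hindbrain segment, measured 5.57 to 6.56 in SThdh111/111 and 5.50 to 7.32 in SThdh7/7. Hoxb7 measured 6.54, 6.82, 6.04 and 6.99 in SThdh111/111, against 7.72, 7.88, 7.00 and 6.62 in SThdh7/7 (difference -0.71 ± 0.37, SE; adjusted p = 0.22).

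Of the HoxC genes, on chromosome 15, 4 of 7 were below the floor on all arrays (Hoxc4, Hoxc5, Hoxc10 and Hoxc13). Hoxc6, a gene of the forelimb level and thorax, had 3 probe sets, all called higher. The brightest measured 8.61, 8.90, 9.0 and 8.54 in SThdh111/111, against 8.29, 8.42, 8.28 and 7.71 in SThdh7/7, a rise of 0.59 ± 0.19 (SE; adjusted p = 0.036). The lines did not overlap, but the call was lost without SThdh111/111 sample 2 (adjusted p = 0.10), without SThdh111/111 sample 3 (adjusted p = 0.11) and without SThdh7/7 sample 4 (adjusted p = 0.088).

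Hoxc8, which acts in brachial motor neurons and ribs, measured 7.43, 7.80, 8.03 and 7.84 in SThdh111/111, against 7.38, 5.20, 5.75 and 5.18 in SThdh7/7. Only SThdh7/7 sample 1 was above the floor in that line, and it came close to the lowest SThdh111/111 array. The difference was at least 0.66 (adjusted p = 0.0093). Hoxc9, its neighbour, which sets thoracic motor neuron identity, measured 7.69, 7.53, 5.54 and 7.63 in SThdh111/111, against 5.53, 7.53, 5.16 and 5.34 in SThdh7/7. One array of each line crossed over to the other's range (difference 1.20 ± 0.62, SE; adjusted p = 0.21), and it was called without SThdh7/7 sample 2 (difference 1.75; adjusted p = 0.046).

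HoxD genes, on chromosome 2, which include the main patterning genes of the digits, were not called in either direction, with 0 higher and 1 lower at an unadjusted p under 0.05 in limma. Hoxd1, Hoxd9, Hoxd10 and Hoxd12 were below the floor on all 8 arrays, and Hoxd11 on 7. Hoxd12 was the gene lower at an unadjusted p, between values that were all below the floor, and it was called lower when no intensity trend was fitted. Hoxd8 measured 7.71, 7.83, 7.50 and 7.60 in SThdh111/111, against 7.81, 7.15, 4.56 and 6.89 in SThdh7/7. The lines overlapped through SThdh7/7 sample 1 (difference 1.06 ± 0.55, SE; adjusted p = 0.21). It was called without SThdh7/7 samples 1 and 2 (difference 1.94, limma adjusted p = 0.029). Averaged over its probe sets the Hoxd8 difference was -0.24, but the other probe set was below the floor on all 8 arrays. Hoxd3 measured 3.82 to 6.97 in SThdh111/111 and 6.58 to 7.08 in SThdh7/7, and Hoxd13 3.43 to 7.33 in SThdh111/111 and 6.26 to 7.13 in SThdh7/7.

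Genes that share a paralogue number were set side by side. Both measured genes of number 2, in HoxA and HoxB, were called higher, as were those of number 6, in HoxB and HoxC. Number 3 was called higher in HoxA and HoxB and not in HoxD. In HoxB numbers 4 and 5 were called higher. In HoxA number 4 was below the floor and number 5 was not called at its brightest probe set, and in HoxC both were below the floor. Hoxc8 was called higher and Hoxd8 was not, and Hoxa11 was called higher while Hoxd11 was not tested. No gene of numbers 1 and 7 was called. Number 9 was called higher in HoxA and HoxB, was not called in HoxC and was below the floor in HoxD. Number 10 was called higher in HoxA and was below the floor in HoxC and HoxD. Number 13 was called higher in HoxB only, among the 4 genes measured. Differences between clusters or between paralogues were not tested.

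Probe sets of a gene did not always share a call. Of 10 Hox genes with more than 1 kept probe set, 3 were called at all of them (Hoxa9, Hoxb4 and Hoxc6), 3 at none (Hoxa4, Hoxc5 and Hoxd8) and 4 at some. These 4 were Hoxa3, Hoxa5, Hoxa10 and Hoxb3. Of the 4 Hoxa3 probe sets, the pair called higher differed by 1.37 and 1.69 and the other pair by -0.07 and -0.59. The Hoxa10 probe set without a call was below the floor in both lines, so the rise of Hoxa10 rests on 1 probe set, whose name marks it as shared by transcripts of a gene.

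**Figure D2:**
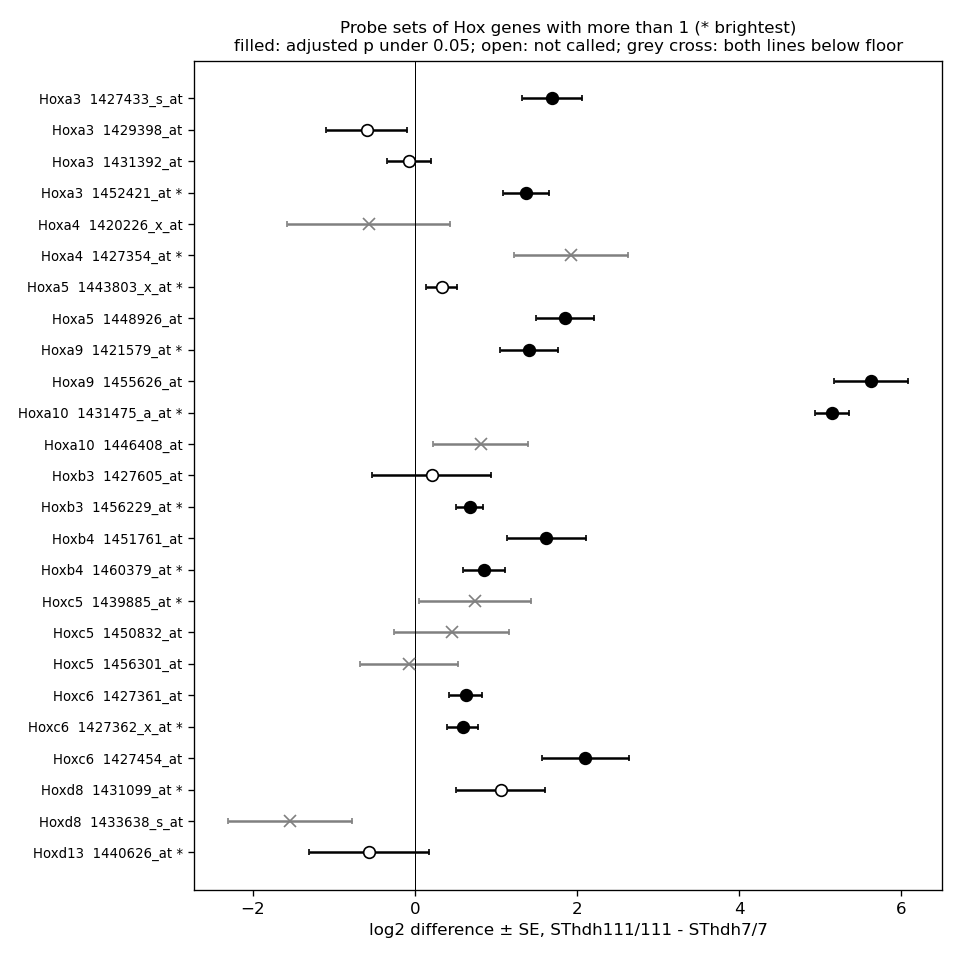
Fitted log2 difference, SThdh111/111 minus SThdh7/7, with its SE (horizontal axis) for each kept probe set of the Hox genes that have more than 1 on the array; the second Hoxd13 probe set was not kept. Filled points passed an adjusted p of 0.05, open points did not, grey crosses were below the floor in both lines, and fitted values of probe sets partly below the floor are not bounds. The Hoxa9 and Hoxc6 probe sets are all filled and to the right of 0, and those of Hoxa3 lie on both sides.

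Genes next to the clusters were called in both directions. The 3 nearest named protein-coding genes on each side of each cluster made 24, of which 23 were tested, and 3 of these were called higher and 5 lower, against 13.1% and 15.9% of all named genes. The 20 that were above the floor on all arrays differed by -0.89 to 0.55. The 3 called higher were Atf7 next to HoxC (0.55), Tax1bp1 next to HoxA (0.38) and Atp5g3 next to HoxD (0.23). Next to HoxA, Skap2 differed by 0.19 ± 0.07 (SE; adjusted p = 0.069), Snx10 fell by 0.89 on the log2 scale, and Evx1, the homeobox gene beside Hoxa13, was below the floor. Next to HoxD, Lnpk fell by 0.63 on the log2 scale and Mtx2 differed by -0.02.

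**Figure D3:**
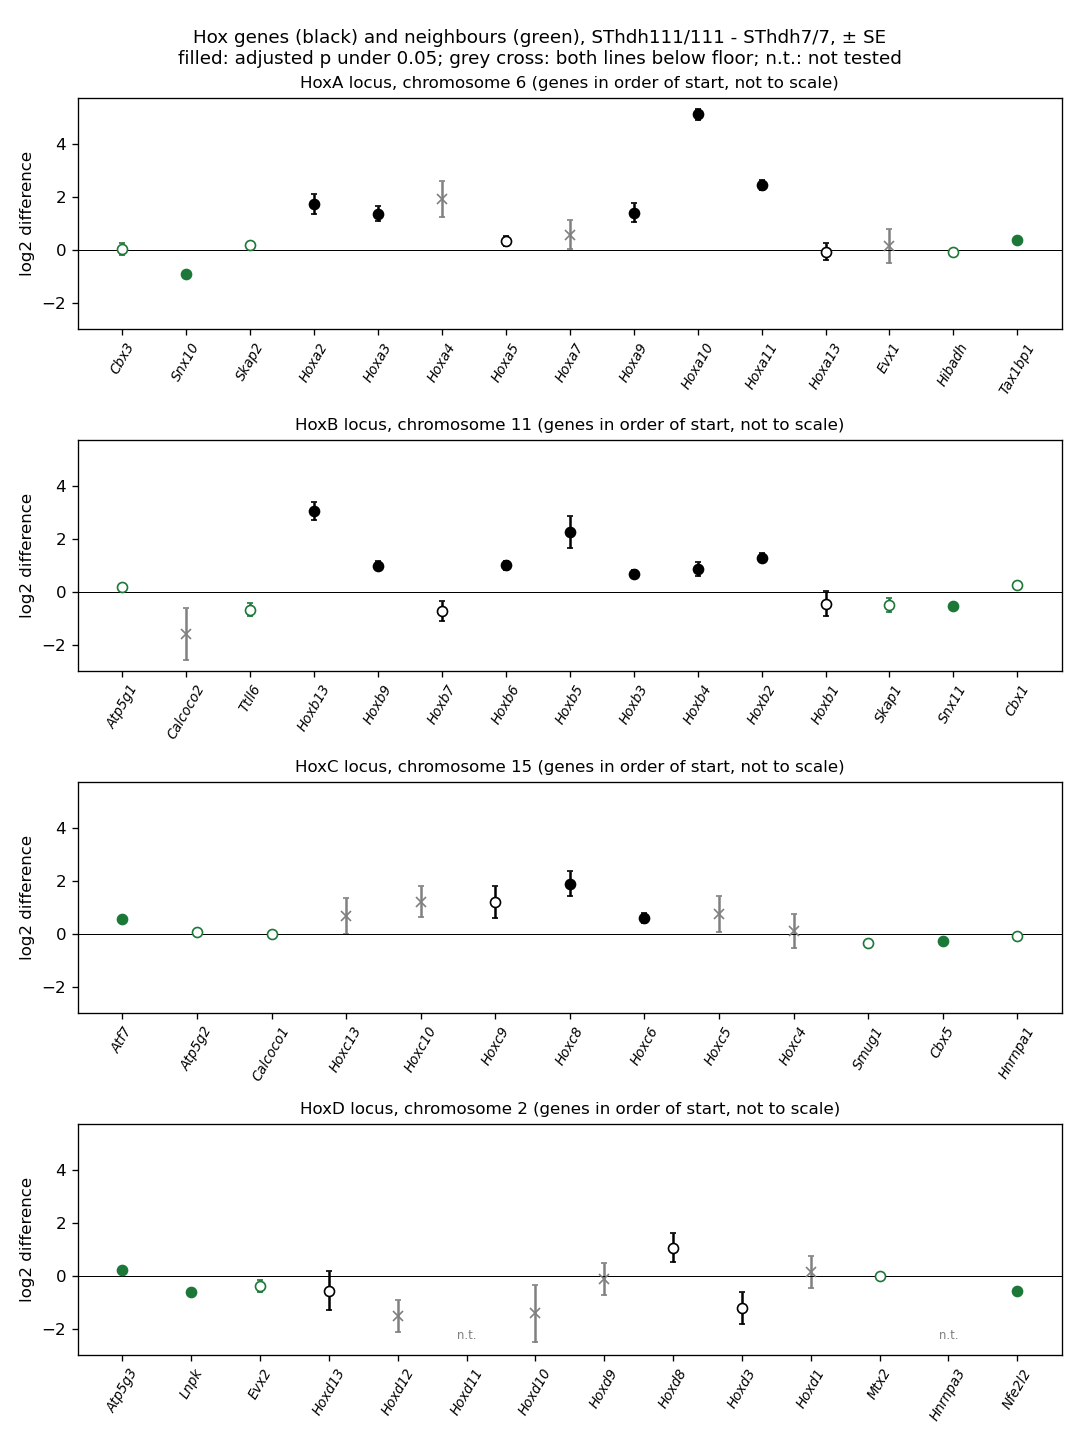
Fitted log2 difference, SThdh111/111 minus SThdh7/7, with its SE (vertical axis) for the Hox genes with a probe set of their own (black) and the 3 named genes on each side (green), in order along each chromosome and not to scale. Filled points passed an adjusted p of 0.05, open points did not, grey crosses were below the floor in both lines, and n.t. marks genes not tested. Hoxa10 at 5.14 lies apart from Hoxa13 at -0.08 and from the green points around 0.

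Hox proteins bind DNA with Pbx and Meis cofactors, and of 9 listed cofactor genes 8 were tested, 3 called higher and 1 lower, against 13.1% and 15.9% of all named genes. Meis2 averaged 9.78 ± 0.11 in SThdh111/111 and 11.56 ± 0.28 in SThdh7/7 (SD, n = 4 each) and fell by 1.78 on the log2 scale, as it did in 2 of its 3 other probe sets. Pbx3 averaged 10.89 ± 0.16 in SThdh111/111 and 10.09 ± 0.09 in SThdh7/7 (SD, n = 4 each) and rose by 0.80. Meis1 was at least 1.07 higher (adjusted p = 0.0048) and Pbx2 rose by 0.49, but no other probe set of Meis1 or Pbx2 was called, and the Meis1 probe set left when those matching several transcripts were removed differed by -0.033. Under that removal Meis2 was not called either (difference -0.64; adjusted p = 0.47).

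Polycomb proteins silence Hox clusters, and of 28 tested genes 5 rose and 8 fell, against 13.1% and 15.9% of all named genes, and 6 rose and 4 fell after centring of the arrays. Ezh2, the histone H3 lysine methyltransferase of Polycomb, fell by 1.30 on the log2 scale (limma adjusted p = 1.8e-07). Suz12, its partner subunit, fell by 0.98, with 2 of 5 other probe sets lower too, and Phc2 fell by 0.64. Ezh1, the paralogue of Ezh2, rose by 0.89, a call lost with the mean of its probe sets (adjusted p = 0.16), Phf1 by 0.77 and Bmi1 by 0.43. Of 12 tested trithorax-group genes and demethylases of the Polycomb mark, which oppose this silencing, 5 rose and 2 fell, and 8 and 0 after centring, beside the same 13.1% and 15.9%. Ash2l rose by 0.51, Kdm6b by 0.56 and Kmt2d by 0.53, while Psip1 fell by 0.61 and Wdr5 fell by 0.43 on the log2 scale, and both falls lost their calls after centring. The other probe sets of Ash2l, Kdm6b, Kmt2d and Wdr5 were not called. Without SThdh111/111 sample 1, or without sample 2, 2 of these genes were called higher, and Kmt2d lost its call without sample 1, 2 or 3 of that line.

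Retinoic acid induces anterior Hox genes, and of 18 tested genes of its pathway 3 rose and 3 fell, against 13.1% and 15.9% of all named genes, or 29% called in either direction. Crabp1, which binds retinoic acid in the cytoplasm, was lower by at least 29.2-fold (limma adjusted p = 4.6e-11), and the orphan receptor gene Nr2f1 was at least 4.33 lower. Crabp2 was called lower from a SThdh7/7 mean of 6.90, under the floor. Rbp4, the retinol carrier, was at least 2.69 higher, Rxra rose by 1.04 and Rxrb by 0.42, the last a call lost without SThdh111/111 sample 1 (adjusted p = 0.059). Of 7 tested other regulators of axial position 0 were called, and 0 at an unadjusted p under 0.05 in limma, among them Cdx4, Evx1 and Gbx2, which were below the floor.

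Marker lists of other tissues were set beside the Hox genes. Of 13 tested forebrain regulators 1 rose and 4 fell, against 13.1% and 15.9% of all named genes. Lhx2 was at least 18-fold lower in SThdh111/111, Pax6 at least 6.96-fold lower, Emx2 fell by 1.42 on the log2 scale, and Dlx2 was at least 1.13 higher. Their summed intensity was 1422 to 1736 in SThdh111/111 and 5023 to 5582 in SThdh7/7, and Dlx6, Gsx2, Nkx2-1, Sp8 and Isl1 were below the floor. Of 11 tested markers of striatal projection neurons 2 rose and 1 fell, beside the same 13.1% and 15.9%. Their sums were 3587 to 3803 in SThdh111/111 and 2755 to 3117 in SThdh7/7. Ppp1r1b, Drd1 and Gad1 were the tested markers below the floor on all arrays of both lines. Penk was at least 2.41 higher, Foxp1 rose by 0.29, a call lost without SThdh111/111 sample 1 or 3 or SThdh7/7 sample 1 or 2 (adjusted p from 0.053 to 0.075), and Rgs9 fell by 0.71 on the log2 scale, with no other probe set called.

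Of 25 regulators of limb and body mesenchyme, where Hox genes are normally expressed, 10 rose and 4 fell, and 10 and 2 after centring, against 13.1% and 15.9% of all named genes. Prrx2 rose by 4.50, Foxc1 by 2.68 and Osr1 by 1.67, while Shox2 fell by 1.99, Foxf1 fell by 1.49 and Twist2 fell by 0.37 on the log2 scale, the last a call lost after centring. Their summed intensity was 28847 to 30276 in SThdh111/111 and 17356 to 17996 in SThdh7/7, and Tbx4, Hand2 and Meox2 were below the floor. Of 9 mesenchymal matrix genes 7 rose and 0 fell, beside the same shares, with 0 lower at an unadjusted p under 0.05 in limma, and sums of 101661 to 118937 in SThdh111/111 and 23857 to 25284 in SThdh7/7. Dcn was at least 162-fold higher at its brightest probe set, with the other not called, Col1a2 rose by 4.34 and Postn by 3.21. The part of these markers in the Hox differences was not tested.

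Of 7 haematopoietic markers 2 rose and 2 fell, against 13.1% and 15.9% of all named genes, with sums of 1843 to 2340 in SThdh111/111 and 6749 to 8430 in SThdh7/7. Cd34 fell by 3.18 and Cd68 fell by 1.75 on the log2 scale, and Csf1r rose by 0.49, with no other probe set called. Kit was at least 0.25 higher, a call lost in 5 of 8 single-sample omissions (adjusted p from 0.054 to 0.087; SThdh111/111 sample 1, 2 or 4, SThdh7/7 sample 3 or 4), and its other probe set differed by -0.96 and was not called. Ptprc, which marks all white blood cells, was below the floor. Of 4 tested endothelial markers 0 were called, and 0 at an unadjusted p under 0.05 in limma, with sums of 466 to 590 in SThdh111/111 and 368 to 781 in SThdh7/7.

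**Figure D4:**
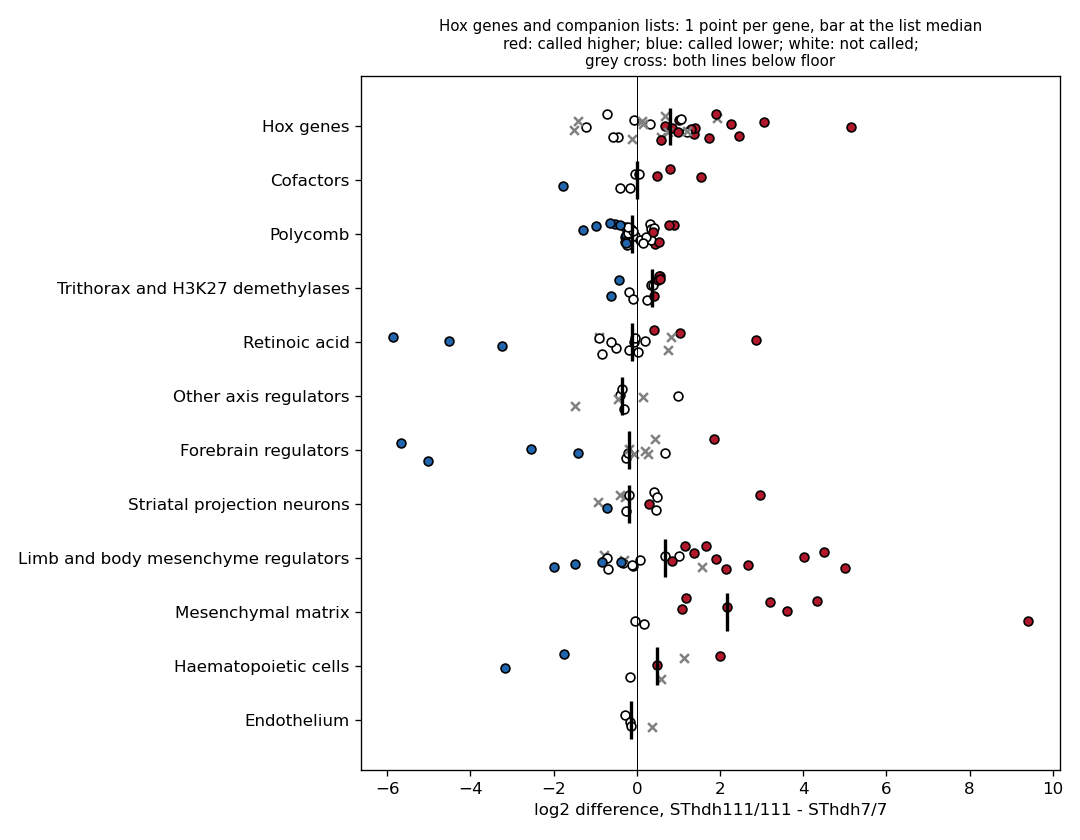
Fitted log2 difference, SThdh111/111 minus SThdh7/7 (horizontal axis), of each Hox gene and each gene of the other lists, 1 point per gene at its brightest probe set and a bar at the list median. Red points were called higher in SThdh111/111, blue points lower, white points were not called and grey crosses were below the floor in both lines. The Hox median lies at 0.80 with no blue point. The mesenchymal matrix median lies further right, at 2.17, also with no blue point. The limb and body mesenchyme median lies at 0.69, and those of the cofactor and Polycomb lists at 0.01 and -0.12.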

How the data were processed

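Total RNA had been purified with Tri-reagent and RNeasy columns, biotin labelled and hybridised to Affymetrix arrays, per the labels' protocols. The deposited intensity values are linear, 1 per probe set and array, scaled by the authors to a trimmed mean of 500.0 on each array (2% off each end), as read from the values. The submitters' processing notes name GCRMA, whose form these values lack, so the tool behind them is not settled. A per-array scaling cannot remove differences in background, which bear on dim probe sets. The number of arrays limits the precision.

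Here log2 was taken, 64 control probe sets were left out, and 41409 of 45037 others with a log2 of at least 4 on at least 4 of 8 arrays were fitted in limma 3.58.1 (R 4.3.3) with lmFit and eBayes (trend = TRUE), two-sided. Of all probe sets 34945 had 1 gene in the platform annotation, 932 several and 9160 none; symbols were updated by Entrez number to GRCm38.p6. A gene's brightest probe set, by mean over all arrays, stood for it. For the floor, the 95th percentile over 27 bacterial controls was taken on each array, and the highest array's was used. The fit was tested on simulated data; it missed the recovery requirement first set for it, which was then replaced, with that outcome known, by checks on sign, bias and false calls.

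Every Hox gene was accounted for, with values on each array for called genes above the floor; of the other lists, the 3 most significant called members at most were named per direction. The members and lists were chosen with earlier results of these data known. Alternatives were other filters, scalings, trend and weights, probe set choices, the sample number as a block, the floor applied to all values, and samples left out.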

Additional observations from a re-analysis of the deposited data

Results flagged for a closer look

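In 4 of 64 groups of 4 arrays a single array lay far from the other 3 by Dixon's test, and chance alone picks out about 1 group in 20. All involve values around or below the control floor. Hoxc9 in SThdh111/111 was 5.54 in sample 3, against 7.53 to 7.69 in the others, and in SThdh7/7 it was 7.53 in sample 2, against 5.16 to 5.53 in the others. Hoxc4 in SThdh111/111 was 3.19 in sample 4, against 4.65 to 4.80. Hoxd1 in SThdh111/111 was 4.57 in sample 4, against 5.35 to 5.40.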

How the results depend on the processing

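The count of 14 Hox genes called higher was the same after centring, quantile normalization, array weights, no filter and a filter at a log2 of 6, with all 14 genes shared. It was 9 with dim values raised to the floor, where Hoxa2, Hoxa9, Hoxb4, Hoxb5 and Hoxc6 were lost. With the filter at 8 only 11 Hox genes were tested, and 10 of them were called higher. Hoxa2, Hoxb4, Hoxb5 and Hoxc8 did not pass that filter. With no intensity trend 11 were higher and 1 lower (Hoxd12). Dropping probe sets shared by several transcripts left 13 higher. Hoxa10 was not called at its remaining probe set, Hoxb6 had none left to test, and Hoxa5 was gained. Averaging each gene's probe sets gave 13, with Hoxa3 and Hoxb3 lost and Hoxa5 gained. Leaving out 1 sample gave 11 to 15 Hox genes higher (the count includes Hoxa4, below the floor on all arrays, without SThdh111/111 sample 1 and without SThdh7/7 sample 3) and 0 lower, 16 to 20 Hox probe sets higher and 0 lower, a Hox median of 0.62 to 1.06, and 8115 to 8754 calls over all probe sets, against 9288. Of 20 Hox probe sets called higher, 12 were called with the floor set and 13 with the filter at 8, which keeps fewer. With no intensity trend 15 were higher and 1 lower. The Hox median of 0.80 was 1.02 and 1.30 with filters at a log2 of 6 and 8, which keep fewer genes, and 0.24 with the floor set. All calls numbered 6132 without the shared probe sets, where fewer were tested. Signs of uncalled values turned for Hoxa13 after centring (0.077), after quantile normalization (0.087), without SThdh7/7 sample 2 (0.026, in a range of -0.19 to 0.026 over single omissions) and without SThdh7/7 samples 1 and 2 (0.17), for Hoxb1 without those samples (0.028), for Hoxd13 with the floor set (0.12) and without SThdh111/111 sample 2 (0.33, in a range of -0.97 to 0.33), for Hoxd8 averaged over probe sets (-0.24), and for Meis1 at another probe set (-0.033). With the sample number as a replicate block, 14 Hox genes were higher and 0 lower, 20 Hox probe sets were higher, and 8828 probe sets were called in all; the block changed no call of a Hox gene. The numbers gave little sign of pairing, with correlations of deviations between same-numbered samples of -0.014 to 0.0090. The closest SThdh7/7 sample had the same number for SThdh111/111 samples 1 and 4 and another number for samples 2 and 3. The causes of these shifts were not tested unless given. Values below the floor, including most of HoxD, limit what the arrays can show.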

Other observations

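Some probe sets name Hox transcripts and fall outside the rule for members. The antisense transcript Hoxa11os, which overlaps Hoxa11 on the opposite strand, measured 9.43, 9.16, 8.63 and 9.41 in SThdh111/111, against 6.01, 5.96, 3.64 and 6.04 in SThdh7/7. It was at least 4.39-fold higher (limma adjusted p = 5.6e-05), and its other probe set was below the floor in both lines. Whether the labelling kept the strands apart is not given in the sources used here, so signals of Hoxa11 and Hoxa11os cannot be separated with certainty. A probe set annotated to both Hoxb8 and Hoxb7 measured 8.36, 10.08, 9.78 and 10.03 in SThdh111/111, against 7.03, 7.48, 7.57 and 8.05 in SThdh7/7, a rise of 2.03 ± 0.34 (SE; limma adjusted p = 4.7e-04). The probe set of Hoxb7 alone differed by -0.71 and was not called. Both probe sets annotated to Hoxd4 and Hoxd3 were below the floor on all arrays, and those of Hoxb5os and Hoxd3os1 were not called.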
